A study of Homo sapiens with 3 samples.

Results

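The cytoplasmic ribosomal protein genes were described in BE(2)-C cells, a human neuroblastoma line with MYCN amplification, after siRNAs against WDR5. Members were chosen by gene symbol alone: RPSA, RPLP0, RPLP1 and RPLP2, and every RPL or RPS symbol with a number and at most 1 closing A, X or L, leaving out pseudogenes, RPS4Y genes and RPS6K kinases. Of 14884 genes named on the array, 49 met the rule, 31 of the large and 18 of the small ribosomal subunit. By RefSeq, 81 protein-coding symbols meet it, and the other 32, among them RPSA and the 3 acidic stalk proteins, were not analysed here. The groups were cells 40 hours after WDR5 siRNA-1, cells 40 hours after WDR5 siRNA-2, and cells 40 hours after a control siRNA. All were BE(2)-C cells grown in the same serum-containing medium, and each group was 1 array of a single line, so no value has a replicate error and no p-value is given. A ratio here compares a pair of arrays, and both ratios to control share the 1 control array. In such a bulk measurement, fewer cells and less RNA per cell cannot be told apart.

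The cytoplasmic ribosome joins a small subunit, which reads the mRNA, to a large subunit, which forms peptide bonds, and cells make their proteins in matched amounts. Ribosomal protein mRNAs usually carry a 5′ terminal oligopyrimidine tract (TOP), a C at the first transcribed base followed by a run of C and T, through which mTORC1 signalling and the RNA-binding protein LARP1 control their translation. WDR5, a WD40-repeat scaffold of histone H3 lysine 4 methyltransferases, has been mapped in other human cell lines to the promoters of a subset of these genes. Growth driven by MYC family proteins is known to go with high ribosome production.

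The start sites show the sequence feature that most members share although the rule did not use it. A start was counted as TOP when its first base was C and at least the next 4 were C or T, in RefSeq start sites of the GRCh38.p14 build on the gene's own strand. A gene counted when any of its listed starts met this. Of the 41 kept members with an entry, 30 had such a start (73.2%). The same held for 1404 of all 27305 genes in the table (5.14%) and for 6.24% of its protein-coding genes. RPL8, RPL30, RPL39L and RPS15A are the other 4 kept members. The windows below run from 10 bases before the start to 20 bases from it, 5′ to 3′, with the pyrimidine run in capitals. The first 6 belong to the members lowest against control and the last 5 to those highest, ranked by the smaller of a member's ratios where both had the same sign, so that the starts can be set beside the values given further on.
RPL36, chr19:5690285-5690314, plus strand: cggcgccagcCCTTCCgccacggccgtctc
RPL34, chr4:108620566-108620595, plus strand: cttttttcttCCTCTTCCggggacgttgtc
RPL29, chr3:51995876-51995905, minus strand: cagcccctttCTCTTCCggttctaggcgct
RPL37A, chr2:216498834-216498863, plus strand: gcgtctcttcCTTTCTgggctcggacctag
RPL31, chr2:101002279-101002308, plus strand: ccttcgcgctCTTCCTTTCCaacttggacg
RPL9, chr4:39458903-39458932, minus strand: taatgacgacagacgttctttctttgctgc
RPS29, chr14:49598691-49598720, minus strand: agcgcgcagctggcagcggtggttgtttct
RPS19, chr19:41860245-41860274, plus strand: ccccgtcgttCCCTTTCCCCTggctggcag
RPL22, chr1:6199576-6199605, minus strand: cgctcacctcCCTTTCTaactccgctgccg
RPL19, chr17:39200313-39200342, plus strand: agctctttcctttcgctgctgcggccgcag
RPS21, chr20:62387093-62387122, plus strand: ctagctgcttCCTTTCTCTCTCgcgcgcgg
Runs of this kind stood at the starts of 5 of the 6 low members and of 3 of the 5 high ones. RPL9, RPS29 and RPL19 did not meet the rule at the start shown. RPL34, RPS19 and RPL19 each have 2 listed starts, of which 1 is shown. Where the starts of a gene differ in their run, the one with the longest run is shown, which favours runs in RPL34 and RPS19.

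The members' own levels come next. The values are deposited levels per probe set, read as log2, and of a gene's probe sets the one with the highest mean was used. A gene was kept when its mean over the 3 arrays was at or above the median of all named genes, 6.78, which left 7442 genes and 45 members, 28 of the large and 17 of the small subunit. RPL39L, at a mean of 6.84, was the kept member nearest the limit, and RPL32, at 6.63, the nearest below it. WDR5 itself stood at 7.90 with siRNA-1 and 7.90 with siRNA-2, against 9.46 with control siRNA, a log2 ratio of -1.56 in both. The WDR5 siRNA arrays hold exactly the same value for it, below the highest background row. Between at least 1 pair of arrays, 41.1% of kept genes and 13.3% of kept members are tied. Of 13 markers of sympathetic neuroblastoma, 10 were on the array and all 10 were kept (HAND2, GATA3 and ISL1 among them). Their levels were 7.29 to 12.5 on each array. The lowest held 7.29 on all 3 arrays, below the highest background row, so being kept does not show that a marker is expressed. Of these markers, DBH stood at 9.58 with siRNA-1 and 10.9 with siRNA-2, against 10.4 with control siRNA, 1.75-fold lower in the first. CHGA stood at 10.4 and 11.6, against 10.9, 1.66-fold higher with siRNA-2. DBH and CHGA, chosen after their values were seen, lay below control on the siRNA-1 array and above it on the siRNA-2 array. On lists for stroma, Schwann cells, leukocytes, endothelium and epithelium, 2 of 5, 2 of 4, 2 of 4, 2 of 3 and 3 of 4 markers were measured. The same filter kept 1, 2, 1, 0 and 2 of them. With control siRNA the measured markers had median levels of 6.84, 6.90, 6.20, 5.09 and 7.10, beside 10.6 for the neuroblastoma list. Among the kept markers of these other cell types, LUM alone was 1.5-fold or more from control, at 10.4 with siRNA-1 and 9.86 with siRNA-2, against 8.88 with control siRNA, and the part of these markers in the results was not tested. The 23 background rows of the array, which hold probes without a target, ran from 1.75 to 9.26. Only the highest of them serves as the limit here, so a level under it does not by itself place a gene at background. Above that level on all 3 arrays stood 15 kept members.

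**Figure D1:**
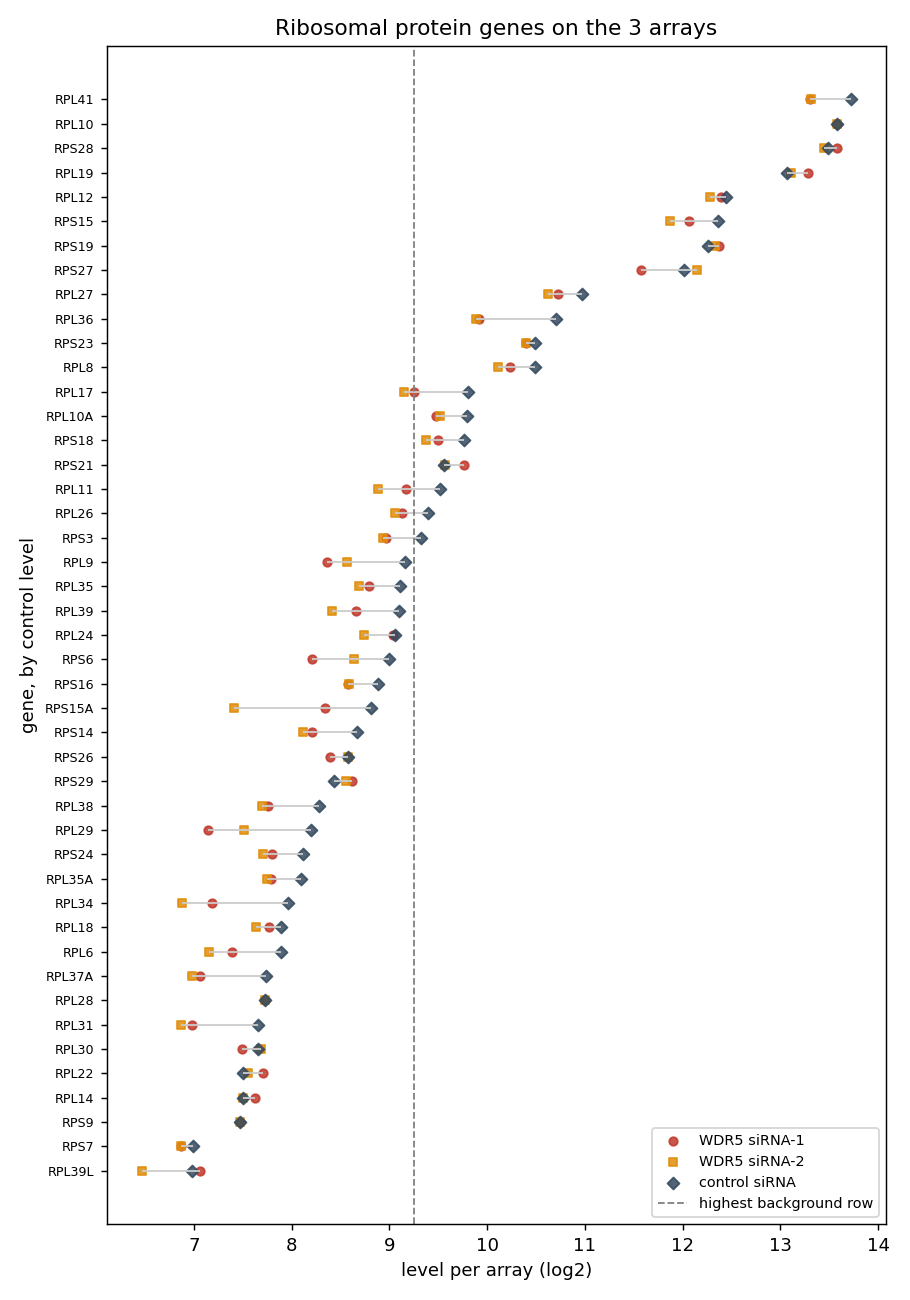
Level of each of the 45 kept ribosomal protein genes (log2, horizontal axis) with WDR5 siRNA-1 (circles), WDR5 siRNA-2 (squares) and control siRNA (diamonds), sorted by control level, with 1 array per group. The control diamond is the rightmost mark for most genes below 11, the exceptions there including RPS29, RPS21 and RPL22, and the dashed line marks the highest background row, 9.26.

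With siRNA-1, ribosomal protein genes were lower than control as a group. Their median log2 ratio was -0.30 and ranged from -1.05 (RPL29) to 0.21 (RPL19), against a median of 0.00 over the 7397 other kept genes. Of the 45 kept members, 34 lay below control, 3 were at exactly 0 and 8 lay above it. Of all 7442 kept genes, 2845 (38.2%) lay below, 1761 were at exactly 0 and 2836 lay above. At least 1.5-fold lower were 7 members (15.6%), against 4.6% of all kept genes, and 0 members were 1.5-fold higher, against 2.24%. The 7 were RPL29, RPL9, RPL36, RPS6, RPL34, RPL37A and RPL31.

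With siRNA-2 the group was lower too, with a median of -0.35 and a range of -1.40 (RPS15A) to 0.12 (RPS27). Again 34 members lay below control, 4 were at 0 and 7 lay above. All kept genes split into 3098 (41.6%) below control, 1915 at 0 and 2429 above. At least 1.5-fold lower were 11 members (24.4%), against 4% of all kept genes, and 0 were as much higher, against 2.19%. These were RPS15A, RPL34, RPL36, RPL31, RPL37A, RPL6, RPL39, RPL29, RPL17, RPL11 and RPL9. RPL9 was 1.502-fold lower and RPL38 1.498-fold, so the limit falls between them. Of the 4 members below the filter, RPL32 was 1.504-fold lower with siRNA-2 as well.

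The lowest members over both comparisons belong to the large subunit. RPL36, a small basic protein, stood at 9.91 with siRNA-1 and 9.89 with siRNA-2, against 10.7 with control siRNA, which is 1.73-fold and 1.76-fold lower. It was the only member lower by 1.5-fold whose level was above the highest background row on all 3 arrays. RPL34 stood at 7.18 and 6.88 with the WDR5 siRNAs and at 7.96 with control siRNA, 1.71-fold and 2.12-fold lower. RPL29, a heparin-binding protein also called HIP, stood at 7.14 and 7.51, against 8.20 with control siRNA, 2.08-fold lower with siRNA-1 and 1.61-fold with siRNA-2. RPL37A, a zinc-binding protein, was at 7.07 and 6.98, against 7.74, and RPL31 was at 6.99 and 6.87, against 7.66. In these genes both WDR5 siRNA arrays lay below the control array, and RPL29 had its lowest value on the siRNA-1 array, the others on the siRNA-2 array. RPL9, lowest on the siRNA-1 array too, stood at 8.36 and 8.57, against 9.15 with control siRNA, 1.73-fold and 1.502-fold lower.

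Other members passed the limit in a single comparison or came near it. RPS6, the small-subunit protein phosphorylated by S6 kinases downstream of mTORC1, stood at 8.21 with siRNA-1 and 8.64 with siRNA-2, against 8.998 with control siRNA, so that it was 1.73-fold lower in the first and 1.28-fold lower in the second. RPL17, at the rim of the exit tunnel, stood at 9.25 and 9.15, against 9.80, which is 1.47-fold and 1.57-fold lower. RPL6 stood at 7.39 and 7.16, against 7.89, and RPL38, which in mice is needed for translation of certain Hox mRNAs, at 7.76 and 7.70, against 8.28. All 4 stood below control on both siRNA arrays, to an unequal degree. Whether the siRNAs differ in these genes was not tested, since each has 1 array.

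The large subunit was the lower of the subunits with siRNA-2. Its 28 kept members had a median log2 ratio of -0.39 and the 17 of the small subunit one of -0.13, a difference of -0.26. The -0.13 is the value of RPS7, tied at 6.86 on both siRNA arrays, and the next lower small-subunit value is -0.30 (RPS16). RPS18, RPS27 and RPS28, whose probe sets lie among identifier neighbours of another chromosome, are all of the small subunit. Without them the difference was -0.18. At least 1.5-fold lower were 10 of 28 (35.7%) against 1 of 17 (5.88%), beside 4% of all kept genes. With siRNA-1 the medians were -0.31 and -0.26, a difference of -0.05. At least 1.5-fold lower were 6 of 28 (21.4%) against 1 of 17 (5.88%), beside 4.6% of all kept genes. In both comparisons the small-subunit share was thus near that of all kept genes. Members below control were 22 of 28 and 12 of 17 in each comparison. The 1 small-subunit gene past the limit was RPS6 with siRNA-1 and RPS15A with siRNA-2. RPS14 and RPS3 lay 1.29-fold to 1.46-fold below control.

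**Figure D2:**
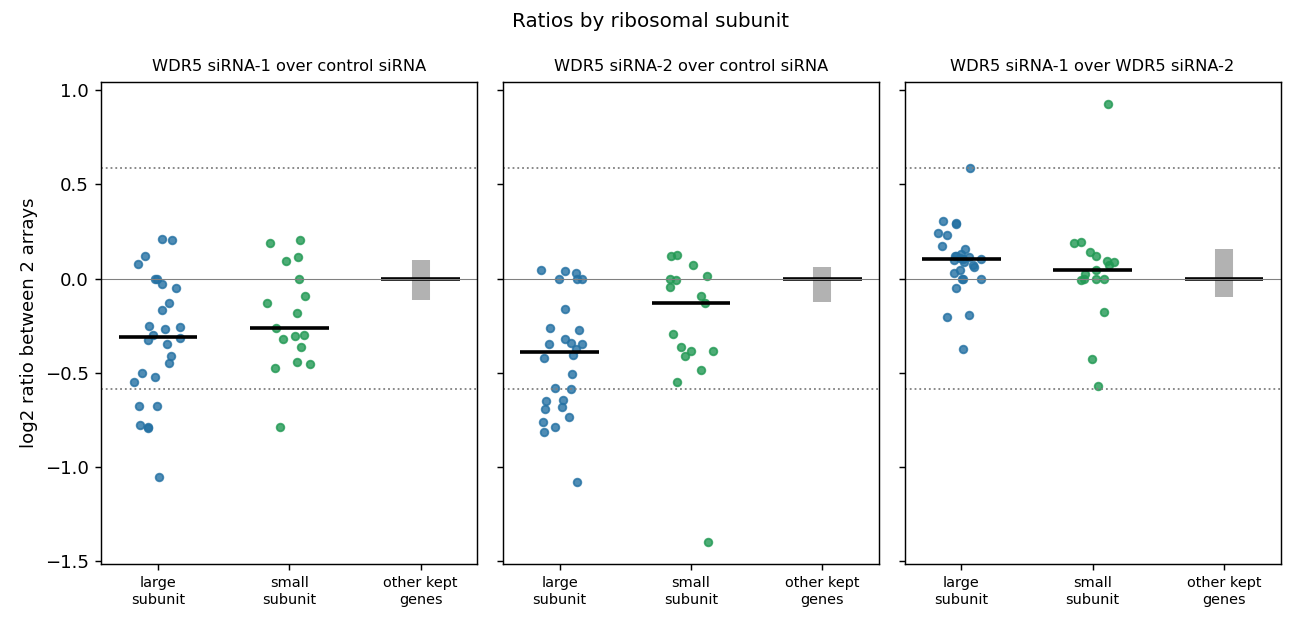
Log2 ratio between 2 arrays (vertical axis) for the 28 large-subunit and 17 small-subunit genes in each comparison, a point per gene, with the median as a black bar. The grey bar spans the middle 50% of the 7397 other kept genes and dotted lines mark 1.5-fold. With siRNA-2 the large-subunit median is -0.39 and the small-subunit one -0.13.

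By position in the ribosome, the peptide tunnel and its exit had 6 kept members with median log2 ratios of -0.38 (siRNA-1) and -0.54 (siRNA-2). RPL31, RPL17, RPL39, RPL35 and RPL26 were below control on both siRNA arrays and RPL19 above it on both. RPL39, whose thin protein lines the tunnel, stood at 8.65 and 8.41, against 9.10 with control siRNA. The 7 genes of the mRNA path and decoding site had medians of -0.18 and -0.09. At least 1.5-fold lower were 0 of them in both comparisons, beside 4.6% and 4% of all kept genes. RPS14, at the mRNA exit, was at 8.21 and 8.12, against 8.67, while RPS9, at the mRNA entry, had the same value of 7.47 on all 3 arrays. RPL11, which with RPL5 and 5S rRNA forms a particle that can stabilise p53, stood at 9.17 and 8.88, against 9.52, 1.27-fold and 1.56-fold lower. RPL12, at the base of the stalk that binds elongation factors, was near control, at 12.39 and 12.28, against 12.44. At the peptidyl transferase centre, RPL8 was at 10.2 and 10.1, against 10.5. RPL10 held exactly the same value, 13.6, on all 3 arrays, as 14.9% of kept genes did. Such a tie does not show that its mRNA was unchanged.

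Diamond-Blackfan anaemia is an inherited failure of red cell production caused by loss of 1 copy of a ribosomal protein gene, and 15 of 19 genes listed for it were kept. Their medians were -0.27 and -0.34, beside -0.30 and -0.35 for all kept members. At least 1.5-fold lower were 1 of 15 (RPL31, 6.67%) with siRNA-1, near the 4.6% of all kept genes, and 3 of 15 (RPL31, RPL11 and RPS15A, 20%) with siRNA-2, against 4%. RPS19, the gene most often affected in that disease, stood at 12.38 and 12.33, against 12.26 with control siRNA, and RPS29 at 8.62 and 8.55, against 8.43. Outside that list, RPL22 was at 7.71 and 7.55, against 7.50, and RPS21 at 9.76 and 9.57, against 9.56. In these 4 genes the control array was the lowest, by at most 0.21 on the log2 scale.

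By control level, the group was lower in both parts of its range. The 23 members with the lower control levels, 6.98 to 9.06, had median log2 ratios of -0.30 (siRNA-1) and -0.35 (siRNA-2), and the 22 with the higher levels, 9.10 to 13.7, had medians of -0.28 and -0.36. Other kept genes within the same level ranges, 4131 and 2730 of them, had medians of 0.00 in both comparisons, with 4.36% and 5.53% at least 1.5-fold lower with siRNA-1 and 3.66% and 4.69% with siRNA-2. Across the 45 members the log2 ratio was weakly related to the control level (Pearson r 0.16, Spearman rho 0.03 for siRNA-1; r 0.23, rho 0.11 for siRNA-2). These describe genes of the same arrays, and the control value enters both measures. Levels of different probe sets also depend on their probes, so the order of levels is not an order of mRNA abundance.

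The 8 members at a control level of 12 or more had medians of -0.02 and -0.02 and 0 genes past 1.5-fold, and the other 37 had medians of -0.30 and -0.37. Among the 8, the chosen probe sets of RPS27 and RPS28 lie among identifier neighbours of another chromosome. Those of RPL10, RPL12 and RPL41 lie among neighbours of no single chromosome, and RPL10 was tied on all 3 arrays. The limit of 12 was set after the values were seen. RPL41, which encodes an extremely short basic peptide, stood at 13.30 and 13.31, against 13.72 with control siRNA, 1.33-fold lower in both. RPS15 was at 12.06 and 11.87, against 12.36, and RPS27 at 11.57 and 12.14, against 12.02. RPS28 was at 13.58 and 13.44, against 13.49, and RPL19 at 13.28 and 13.11, against 13.07. In this range RPL41, RPS15 and RPL12 were below control on both siRNA arrays and RPS19 and RPL19 above. RPL27, at 10.7 and 10.6, against 10.97, was next in level and lower in both. The highest value of any row was 14.6 with siRNA-1, 14.9 with siRNA-2 and 14.6 with control siRNA, and whether the response of the array flattens at such levels was not tested. The 144 other kept genes at 12 or more had medians of 0.00 in both comparisons, with 5.56% and 2.08% at least 1.5-fold lower. The 0 of 8 members past the limit lies near these shares.

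**Figure D3:**
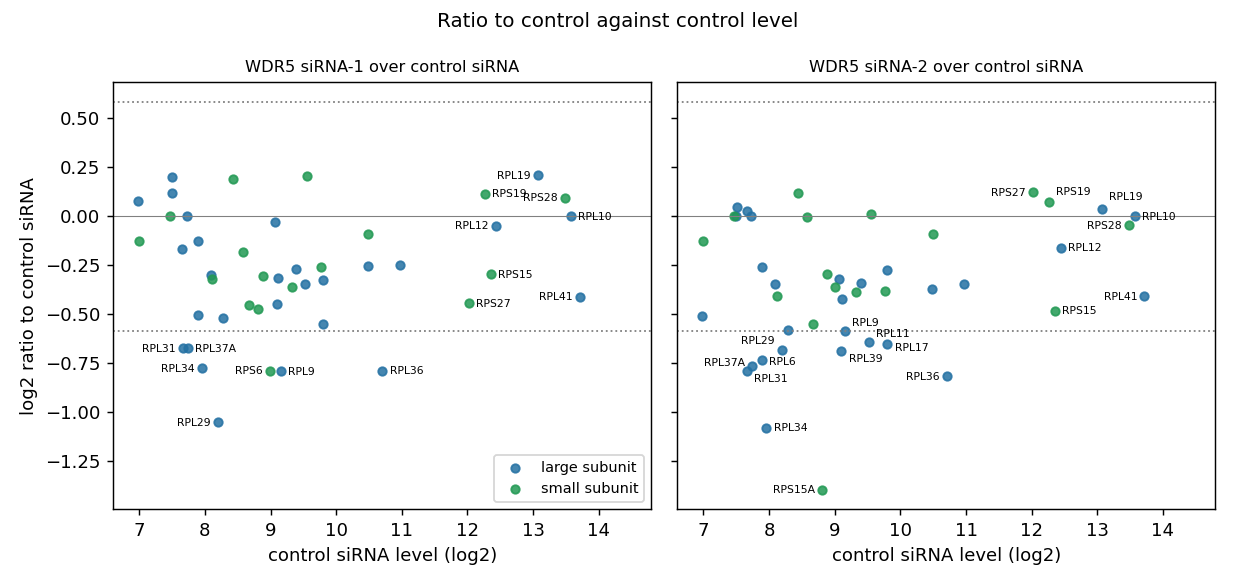
Log2 ratio to control siRNA (vertical axis) against the control siRNA level (log2, horizontal axis) for the 45 kept members, with large-subunit and small-subunit genes in different colours and dotted lines at 1.5-fold. Names mark members past 1.5-fold or at a control level of 12 or more. The 8 members at 12 or more lie between -0.48 and 0.21, and the lowest points lie at control levels of 7.66 to 10.7.

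The 15 members above the highest background row on all arrays give a smaller figure. Their median log2 ratios were -0.25 (siRNA-1) and -0.16 (siRNA-2), 10 of 15 lay below control in each comparison, and 1 (RPL36) was 1.5-fold lower in each. That is 6.67% of the 15, near the 4.6% of all kept genes with siRNA-1 and the 4% with siRNA-2. The other members with large ratios stood at levels that the background rows also reach, so that the sizes of their folds are uncertain. Cross-reading is a further limit, because the genome holds many processed copies of these genes that nearly match them.

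Probe sets of the same gene gave a check within the arrays. RPL41 had 5 probe sets with log2 ratios of -0.53 to 0.00 (siRNA-1) and -0.55 to 0.00 (siRNA-2), and mean levels of 7.59 to 13.4. RPL39 had 2, with ratios of -0.45 and -0.46 with siRNA-1 and of -0.69 and 0.00 with siRNA-2. The RPS18 probe sets had ratios of -0.26 and -0.19 with siRNA-1 and of -0.38 and -0.41 with siRNA-2. Those of RPL19 lay above control in both, at 0.21 and 0.06 with siRNA-1 and 0.04 and 0.28 with siRNA-2. RPL41, RPL39 and RPL19 thus had probe sets that disagreed on size, and none of the 4 genes had probe sets on opposite sides of control. For 3 kept members, RPS27, RPS28 and RPS18, all 20 neighbours of the chosen probe set in identifier order are annotated to another chromosome (12, 11 and 3) than the gene (1, 19 and 6), and which copy those probes read was not tested. Without these 3 the medians were -0.30 and -0.35. The chosen probe sets of RPL31, RPL10, RPL12 and RPL41 lie among neighbours of no single chromosome. Without all 7 the medians were -0.30 and -0.35, and 6 and 10 of 38 members were at least 1.5-fold lower.

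Members whose symbols end in L are paralogs of other members. RPL10L, known from testis, was at 4.21 and 4.40 with the WDR5 siRNAs and at 4.45 with control siRNA. RPL3L, known from heart and skeletal muscle, was at 6.41 and 6.48, against 6.54, and RPS27L, a p53-responsive relative of RPS27, at 5.87 and 5.82, against 5.90. RPL39L, the germ-cell relative of RPL39, was at 7.06 with siRNA-1 and 6.47 with siRNA-2, against 6.98 with control siRNA. The first 3 did not reach the filter level, and none of the 4 stood above the background rows.

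The WDR5 siRNA arrays were also set against each other. The median log2 ratio of siRNA-1 over siRNA-2 was 0.09, against 0.00 for the other kept genes, with 31 members above 0, 5 at 0 and 9 below. Of all kept genes, 3204 were above 0, 1599 at 0 and 2639 (35.5%) below. At least 1.5-fold higher with siRNA-1 were 2 members, against 4.21% of all kept genes, and 0 were as much lower, against 4.65%. RPS15A stood at 8.34 with siRNA-1, 7.41 with siRNA-2 and 8.81 with control siRNA, a log2 ratio of 0.93 between the siRNAs. RPL39L had a ratio of 0.59, and RPS27 one of -0.57, just inside the limit. RPS15A and RPL39L were thus lowest with siRNA-2 and RPS27 lowest with siRNA-1.

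Members were also split by their start sequence. The 30 with a TOP start had median log2 ratios of -0.31 (siRNA-1) and -0.35 (siRNA-2), and the 11 without had medians of -0.25 and -0.28. The 415 other kept genes with such a start had medians of 0.00 in both comparisons, with 3.61% and 3.13% at least 1.5-fold lower. In the windows from 250 bases before to 50 after the start, CACGTG, the E-box that MYC proteins bind, was found at 3 of the 41 members (7.32%) and at 8.77% of all genes. TATAAA was found at 2 members (4.88%) and at 13.99% of all genes, and CTTCCGG, read on both strands like the others and part of the ETS family motif, at 12 (29.3%) and 12.2%. CTTCCGG can overlap a TOP run, as it does in the RPL34 window above, and a match describes the window only.

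Other genes of the translation apparatus had medians nearer to control, a difference that was not tested. Of 26 genes on a list of other TOP mRNAs, 10 were measured and kept. Their median log2 ratios were 0.00 (siRNA-1) and -0.07 (siRNA-2). At least 1.5-fold lower were 0 and 2 genes (20%), against 4.6% and 4% of all kept genes. Only EEF2, EEF1G and EIF4B stood above the highest background row, 9.26, on all 3 arrays. With siRNA-1 their log2 ratios were -0.38, -0.37 and -0.02. With siRNA-2 they were 2.002-fold, 1.28-fold and 1.55-fold lower. Among the rest, HNRNPA1, EEF1D and FAU were tied on all 3 arrays, and NACA and EEF1A1 between the siRNA arrays. Whether the mRNAs of the rest changed was not tested. The elongation factor gene EEF2, which moves the ribosome along the mRNA, stood at 12.85 and 12.23, against 13.23 with control siRNA, and EEF1G at 11.98 and 12.003, against 12.36. EIF4B, a helper of the initiation helicase named after its values were seen, stood at 11.55 and 10.93, against 11.56. FAU, which encodes the small-subunit protein RPS30 fused to a ubiquitin-like domain, had 6.93 on all 3 arrays, and RACK1 was not analysed here. With RPL7L1, RPL22L1, RPL26L1 and RPL36AL FAU makes 5 ribosomal protein genes outside the symbol rule, with medians of 0.00 and -0.04 and 0 past 1.5-fold. EEF2 and EIF4B were the genes past 1.5-fold with siRNA-2, and EEF1G was not past it in either comparison.

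Of further lists, those for ribosome assembly, chaperones, mitochondrial ribosomal proteins and mTORC1 or TOP regulators had medians at or above control. Those for snoRNA hosts and pseudogenes had medians below control with siRNA-2. Of all kept genes, 4.6% were at least 1.5-fold lower with siRNA-1 and 4% with siRNA-2. The 25 kept genes of RNA polymerase I and ribosome assembly had medians of 0.02 and 0.00, with 5 and 6 genes below control and 0 past 1.5-fold in either direction. LTV1, a small-subunit export factor, stood at 10.7 and 10.8, against 10.5, and NOB1, which cuts the 3′ end of 18S rRNA, at 11.85 and 11.69, against 11.59. The 11 chaperones and carriers of ribosomal proteins had medians of 0.07 and 0.00, with RRS1, needed for the 5S particle, at 10.6 and 10.5, against 10.2. The 71 mitochondrial ribosomal protein genes had medians of 0.09 and 0.00, with 0 and 2 genes (2.82%) at least 1.5-fold lower, and MRPS5 at 10.05 and 9.80, against 9.502. Of 10 mTORC1 and TOP regulators, with medians of 0.03 and 0.00, EIF4EBP2, a repressor of cap-dependent translation, stood at 11.76 and 11.93, against 12.49, and MTOR at 9.88 and 9.82, against 9.73. The 7 snoRNA host transcripts had medians of 0.00 and -0.18, with 2 (28.6%) and 1 (14.3%) at least 1.5-fold lower. Among them SNHG15 stood at 8.87 and 8.77, against 9.88. Of 8 kept ribosomal protein pseudogenes, with medians of 0.05 and -0.12, RPL29P2 stood at 7.55 and 7.62, against 8.04, on the same side of control as RPL29. No test of the difference between the lists and the members was possible with 1 array per group.

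**Figure D4:**
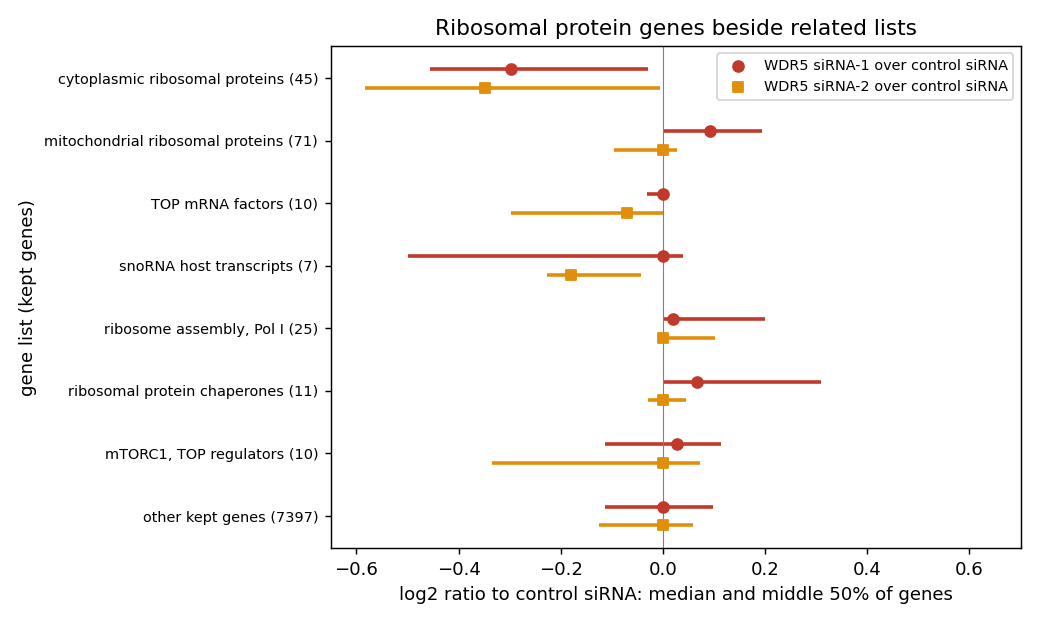
Median log2 ratio to control siRNA (points, horizontal axis) and the middle 50% of genes (lines) for ribosomal protein genes and related lists, with siRNA-1 (circles) and siRNA-2 (squares), and the number of kept genes in brackets. The ribosomal protein medians are -0.30 and -0.35, and the other lists lie between -0.18 and 0.09.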

How the data were processed

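Whole-transcript Affymetrix HuGene-2_0-st arrays were run on total RNA of 3 cultures, 1 per group. The deposited table holds 53617 rows, and its values were read as log2 levels from their range of 1.34 to 14.9, since no scale is stated. Per the submitters' processing notes MAS5 was used. Its role, the background correction and the probe summary are not given in the sources used here. Array medians were 5.79 with siRNA-1, 5.79 with siRNA-2 and 5.81 with control siRNA, and no scaling was added. On all 3 arrays 37.1% of rows share a value, which gives exact 0 ratios.

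Rows were named through the platform annotation (16098 rows with a gene symbol) and RefSeq of GRCh38.p14. Ratios, counts past 1.5-fold and medians were computed with Python 3.11.15, pandas 2.3.3 and numpy 2.4.6, and the counting was tested on simulated data. Without replicates no test was made, and the number of arrays limits the precision. The members, lists and alternatives were chosen with earlier results of these data known. Named genes are WDR5, members, and up to 3 genes of each other list with the largest smaller absolute ratio to control, with FAU and RACK1; EIF4B, DBH, CHGA, RPL7L1, RPL26L1 and RPL36AL were picked with their values in view. The limit at a control level of 12 and the settings on probe set neighbours were also added after the values were seen.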

Additional observations from a re-analysis of the deposited data

How the results depend on the processing

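No paired analysis was possible because each group is 1 array, and no array could be left out. Over the alternatives run, the median log2 ratio of the members stayed between -0.30 and -0.25 with siRNA-1, between -0.35 and -0.22 with siRNA-2 (-0.22 for the 16 members whose mean level is above the highest background row; the 15 above it on all 3 arrays had -0.16) and between 0.04 and 0.10 for siRNA-1 over siRNA-2. Members at least 1.5-fold lower numbered 7 with siRNA-1 and 11 with siRNA-2. They numbered 3 and 5 of 25 with the 75th percentile filter (4.86% and 4.14% of all genes kept there), and 1 and 2 of 16 with a mean above the highest background row (4.1% and 3.94%), where RPL17 joins the 15. At the looser fold limit they were 18 and 25 (12% and 11.2% of all kept genes), and at 2-fold 1 and 2 (1.12% and 0.658%). For siRNA-1 over siRNA-2, 2 members were higher, which became 0 with the 75th percentile filter, at 2-fold and above the background rows, and 1 with quantile normalization, median centring and without RPL39L. Lower members, 0 in that comparison, were 1 with quantile normalization and 3 at the looser fold limit. The difference between the members of lower and of higher control level, -0.02 with siRNA-1 and 0.01 with siRNA-2, was -0.15 and -0.26 with the 75th percentile filter and, for siRNA-1, 0.090 between the lowest and highest parts of the level range. The cause of these shifts was not tested, except that stricter filters leave fewer members. The large-subunit median stayed below the small-subunit one in both ratios to control, by 0.03 to 0.08 with siRNA-1 and 0.18 to 0.27 with siRNA-2. The setting without RPS27, RPS28 and RPS18 was added after the data were seen.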
